A study of Mus musculus with 3 samples.

Results

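The 8 genes described here encode the IκB kinase (IKK) family and the scaffold proteins that hold its members: Ikbke, Tbk1, Ikbkb, Chuk, Ikbkg, Tank, Azi2 and Traf3. They were chosen by symbol, as 8 of the 55536 genes in the tables, and all 8 were among the 12167 detected genes, which reached 10 expected counts in every library. The cells were mouse macrophages grown from bone marrow of strain C57BL/6J and stimulated for 50 min with 100 ng/ml lipid A, the membrane anchor of bacterial lipopolysaccharide that is recognised by Toll-like receptor 4. RNA of their chromatin fraction, which is rich in transcripts still being made or processed, was sequenced after ribosomal RNA depletion. There were 3 libraries in 1 group, numbered as biological replicates and made from 1000, 250 and 500 ng of RNA for replicates 1, 2 and 3. They carried the same donor code, so the spread between them may be technical, and neither the sex nor the age of the mice had been collected. No untreated cells and no other fraction were analysed here, so none of the levels below is a response to lipid A. Each level is the RNA of all cells together, and a difference in the number of cells with a transcript cannot be told apart from one in RNA per cell.

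The family has a classical and a noncanonical branch. In the classical branch the kinases IKKβ (gene Ikbkb) and IKKα (gene Chuk), held by the regulatory subunit NEMO (gene Ikbkg), phosphorylate the IκB inhibitors so that NF-kB can enter the nucleus. In the other branch TBK1 and IKKε (genes Tbk1 and Ikbke) phosphorylate the interferon regulatory factors IRF3 and IRF7, and are bound by the adaptors TANK and NAP1 (gene Azi2). TRAF3 is a ubiquitin ligase and adaptor that links receptors to these kinases and, in resting cells, keeps the NF-kB-inducing kinase low. IKKε was also named inducible IκB kinase because lipopolysaccharide raises its mRNA in mouse macrophages.

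The libraries held 10496703, 17687379 and 14806118 expected counts in replicates 1, 2 and 3. The labelled cell type was checked against marker genes. All 8 macrophage markers were detected, and their TPM values (levels corrected for transcript length and scaled to a fixed total) summed to between 359.4 and 420.4. Of 18 markers of T cells, B cells, neutrophils, fibroblasts, endothelium and epithelium, 1 (Kdr) was detected, 9 were listed at 0 in all libraries (among them Cd3e, Ly6g and Epcam) in the first quantification, and the 18 summed to between 1.68 and 2.87 TPM. In the deposited second quantification of the same libraries these 18 summed to between 12.89 and 19.11 TPM, with Pecam1 (6.46 TPM) the highest and 4 listed at 0, and the macrophage markers to between 548.8 and 692.4 TPM.

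By TPM the 2 noncanonical kinases stood above the 2 classical ones. Ikbke, on chromosome 1 (minus strand, chr1:131254343-131279606 of mm10), had 608.7, 462.4 and 415.7 TPM in replicates 1, 2 and 3. It averaged 496 ± 101 TPM (SD, n = 3), which placed it 30th of the 9665 detected protein-coding genes, in the top 0.31%. Its depth was large, with 11622, 17093 and 10562 expected counts. Tbk1, on chromosome 10 (minus strand, chr10:121546455-121586787), had 150.2, 119.1 and 140 TPM and averaged 136 ± 15.8 TPM (SD, n = 3). Ikbke was thus above Tbk1 in each library, by 2.02, 1.96 and 1.57 on the log2 scale, and the mean ratio was 1.85 ± 0.24 (SD, n = 3), or 3.6-fold. By expected counts, which are not divided by length, Tbk1 had 2815, 5059 and 3787 and Ikbkb had 3572, 4501 and 3913. Tbk1 was then below Ikbkb in replicates 1 and 3 and above it in replicate 2.

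Among the classical kinases Ikbkb exceeded Chuk. Chuk, on chromosome 19 (minus strand, chr19:44073335-44107480), had 38.6, 34.62 and 40 TPM and averaged 37.7 ± 2.79 TPM (SD, n = 3). Ikbkb, on chromosome 8 (minus strand, chr8:22659212-22706589), had 103.5, 68.19 and 88.29 TPM and averaged 86.7 ± 17.7 TPM (SD, n = 3). The log2 ratio of Chuk over Ikbkb was -1.42, -0.98 and -1.14, with a mean of -1.18 ± 0.23 (SD, n = 3), so that every library had less than 1 Chuk transcript per Ikbkb transcript. Tbk1 and Ikbke together exceeded Chuk and Ikbkb together by 2.34 ± 0.20 on the log2 scale (SD, n = 3), or 5.08-fold, with 2.42, 2.50 and 2.11 in the 3 libraries. With 3 libraries and 1 group, an exact sign-flip test cannot go below p = 0.25, so these ratios are given with their spread and no test.

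By the TPM of whole genes the regulatory subunit was far below the kinases it holds. Ikbkg, on the X chromosome (plus strand, chrX:74393290-74453854), had 5.6, 8.07 and 11.03 TPM and averaged 8.23 ± 2.72 TPM (SD, n = 3), from 230, 390 and 333 expected counts. Chuk, the lowest of the 4 kinases, lay above it in every library, by 2.25 ± 0.48 on the log2 scale (SD, n = 3). In coding transcripts alone the distance was smaller, with means of 5.37 TPM for Ikbkg, 9.66 for Chuk and 13.9 for Ikbkb. In a second deposited quantification, coding Ikbkg (9.4 TPM) was above coding Chuk (8.1 TPM) and below coding Ikbkb (22.5 TPM). At the position of Ikbkg the gene G6pdx (2.43 TPM) runs on the opposite strand over 19712 bases. The strand setting of the counting was not given, so reads of the overlap could have gone to either gene.

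The 3 scaffolds covered nearly the whole range of the family. Tank, on chromosome 2 (plus strand, chr2:61578585-61654171), had 533.3, 180.2 and 294.4 TPM and averaged 336 ± 180 TPM (SD, n = 3). Azi2, on chromosome 9 (plus strand, chr9:118040499-118069794), had 51.92, 35.23 and 44.93 TPM and averaged 44.0 ± 8.38 TPM (SD, n = 3). Tank was therefore 7.63 times Azi2 by mean TPM, although both proteins are adaptors of the same 2 kinases. Traf3, on chromosome 12 (plus strand, chr12:111166370-111267153), had 7.02, 7.02 and 7.6 TPM and averaged 7.21 ± 0.335 TPM (SD, n = 3), the lowest mean of the 8.

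**Figure D1:**
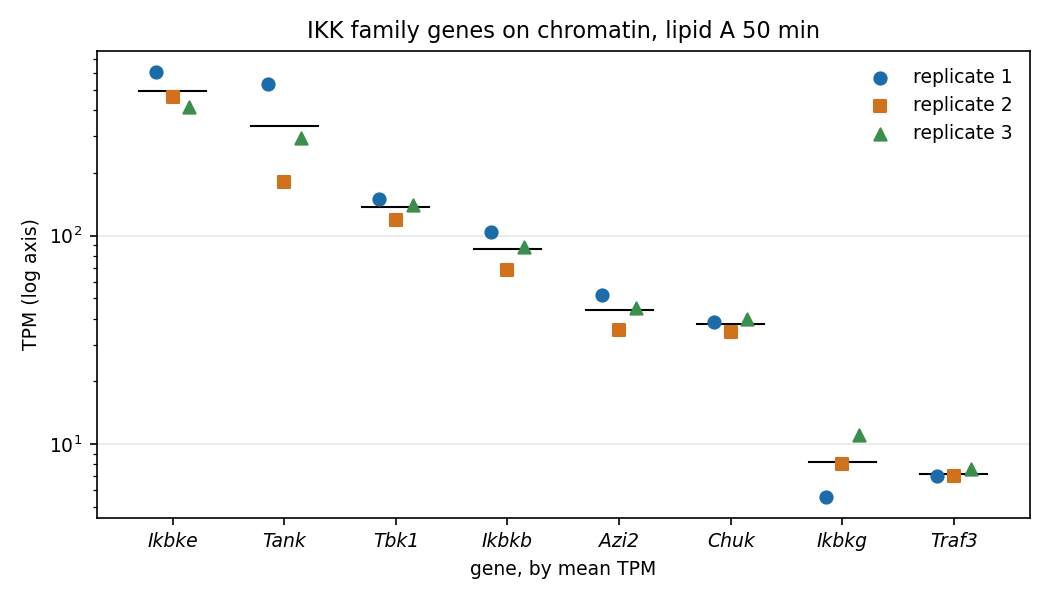
TPM on a log axis of the 8 genes in replicates 1 (circles), 2 (squares) and 3 (triangles), ordered by mean TPM, with the mean of the 3 libraries as a line. The means run from 496 TPM for Ikbke to 7.21 TPM for Traf3, and the points of Tank, at 533.3, 180.2 and 294.4 TPM, lie farthest apart among the 4 highest genes.

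By mean TPM the order was Ikbke, Tank, Tbk1, Ikbkb, Azi2, Chuk, Ikbkg and Traf3, with a 68.7-fold distance between the ends. The libraries of Ikbke and Tank overlapped, as did those of Azi2 and Chuk and those of Ikbkg and Traf3, and the other 4 neighbouring pairs did not overlap. Within the libraries Ikbke was nevertheless above Tank in 3 of 3, by 0.68 ± 0.61 on the log2 scale, and Azi2 above Chuk in 3 of 3, by 0.21 ± 0.20 (SD, n = 3). Ikbkg was above Traf3 in 2 of 3 libraries, by 0.14 ± 0.44 (SD, n = 3), less than the spread. Of the 8 genes 4 (Ikbke, Tank, Tbk1 and Ikbkb) were in the top 5% of detected protein-coding genes, and the lowest, Traf3, was in the top 40.9%. The median of the 8 was 65.4 ± 13.1 TPM, against 4.82 ± 0.614 TPM for all detected protein-coding genes (SD, n = 3).

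The second quantification kept Ikbke on top but changed levels and some places. Ikbke had 1333, 990.2 and 841.1 TPM there, a mean of 1055 TPM, or 2.13-fold its first value. Of the 8 genes 6 were more than 1.5-fold higher in the second quantification, where 55.6% of detected genes were, and none was more than 1.5-fold lower. The exceptions were Tank at 1.21-fold and Ikbkb at 1.29-fold. Traf3, at 2.47-fold, moved most, and with 17.8 ± 2.43 TPM it came out next to Ikbkg at 17.2 ± 2.53 TPM (SD, n = 3). Ikbke and Tank did not overlap there, at 1.47 ± 0.51 on the log2 scale (SD, n = 3). Chuk, with 70.6 ± 22.0 TPM, and Azi2, with 69.5 ± 19.2 TPM (SD, n = 3), could not be separated. Ikbke over Tbk1 was 2.20 ± 0.17 on the log2 scale in the second quantification and 1.85 ± 0.24 in the first, while Chuk over Ikbkb was -0.69 ± 0.18 in the second and -1.18 ± 0.23 in the first (SD, n = 3).

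Tank was the one gene of the family whose libraries differed widely. After scaling by trimmed mean of M-values (TMM), it had 878, 400 and 518 CPM (read counts set to a common library size) in replicates 1, 2 and 3, a 2.19-fold range. The other 7 genes spanned 1.05-fold (Azi2) to 1.38-fold (Chuk). A span of 1.5-fold or more was thus found for 1 of the 8 genes, where 49.3% of the 12167 detected genes had one. A span of 2-fold or more was found for the same 1 gene, where 17.9% of detected genes had one. The span of Tank rested on replicate 1: replicate 3 was 1.29-fold replicate 2, and without replicate 1 none of the 8 genes reached 1.5-fold, where 14% of genes did.

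After TMM scaling the other genes did not follow Tank, apart from Ikbkb, which had the same order over a 1.08-fold range. Tbk1, Chuk and Ikbkg were lowest in replicate 1, where Tank was highest. Tbk1 had 233.8, 308.1 and 272.5 CPM, and Chuk had 71.06, 97.82 and 85.71 CPM, in both cases highest in replicate 2. Ikbke had 965.3, 1041 and 759.8 CPM and was lowest in replicate 3. Ikbkb (296.7, 274.1 and 281.5 CPM) and Azi2 (74.46, 71.69 and 75.14 CPM) were nearly level. These orders depend on the scaling. With library totals Ikbke, Ikbkb, Azi2 and Traf3 were highest in replicate 1, as Tank was. Tbk1 and Chuk were then lowest in replicate 3, and Ikbkg was still lowest in replicate 1. By TPM, Tbk1, Ikbkb and Azi2 ran in the same order as Tank, highest in replicate 1 and lowest in replicate 2. The amount of starting RNA and the depth also differed between the libraries, replicate 1 having the most RNA and the fewest counts, and their part in the range of Tank was not tested.

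**Figure D2:**
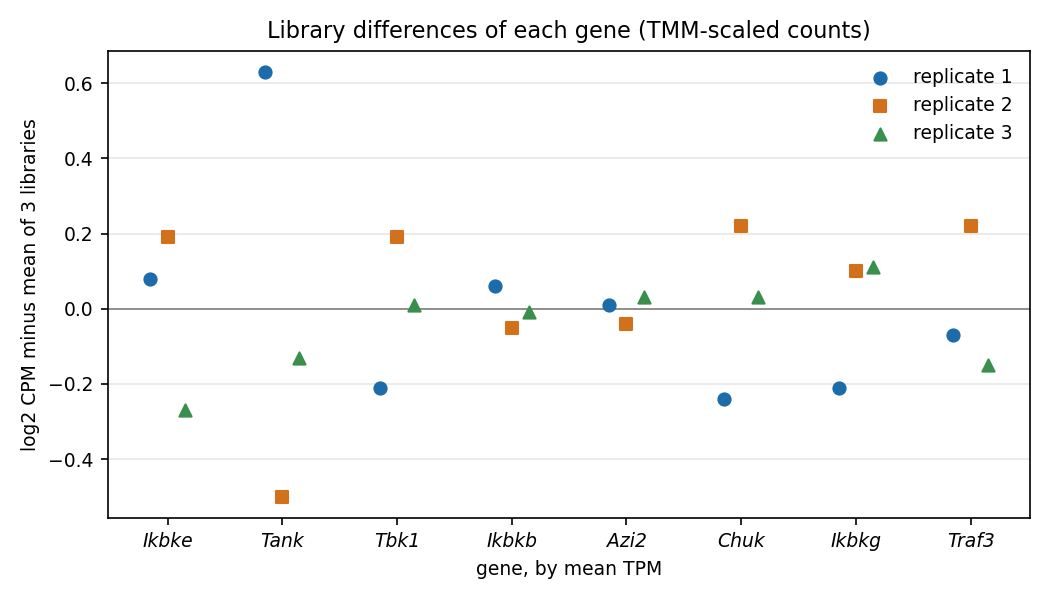
Log2 TMM-scaled CPM of each gene in replicates 1, 2 and 3 minus the gene's mean over the 3 libraries; the grey line marks that mean. Tank stands 0.63 above its mean in replicate 1 and 0.50 below it in replicate 2, and no other gene departs by more than 0.27.

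For most of the kinases the larger part of the signal was assigned to transcripts annotated with a retained intron. These transcripts, of which GENCODE lists 4 for Ikbke, 3 for Tbk1, 7 for Ikbkb and 6 for Chuk, keep intron sequence and are not expected to make the full protein. They held 72.5 ± 2.20% of the TPM of Ikbke, 72.2 ± 6.09% of that of Ikbkb and 74.2 ± 4.61% of that of Chuk (SD, n = 3). Tbk1 had 47.5 ± 1.52% and Azi2 had 52.9 ± 3.35% (SD, n = 3). At least 50% of TPM was thus in this class for 4 of the 8 genes, where 24.1% of detected protein-coding genes reached that share. This background, like those below, includes genes with no annotated transcript of this class, which could not reach the share. Traf3 (11.2%) and Ikbkg (10.2%) were low, and Tank has no transcript of this class. The highest Tank models by TPM, the processed transcripts Tank-211 and Tank-207, are nevertheless 57.2% and 87.4% intron of the coding Tank-202. They held 30% and 18.7% of Tank TPM.

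TPM gives short transcripts more weight than counts do. By expected counts the retained-intron share was 55.8% for Ikbke, 68.2% for Ikbkb and 51.7% for Chuk, so that 3 of the 8 genes reached 50%, where 16.5% of detected protein-coding genes did. By the same counts it was 12.6% for Tbk1, whose retained-intron transcripts are 485 to 747 nt long, and 15.1% for Azi2. In the second quantification 4 of the 8 genes reached 50% of TPM, where 24.9% of detected protein-coding genes did. In the chromatin fraction reads in such introns could come from unspliced RNA still being made as well as from finished transcripts that keep the intron, and these cannot be told apart here.

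**Figure D3:**
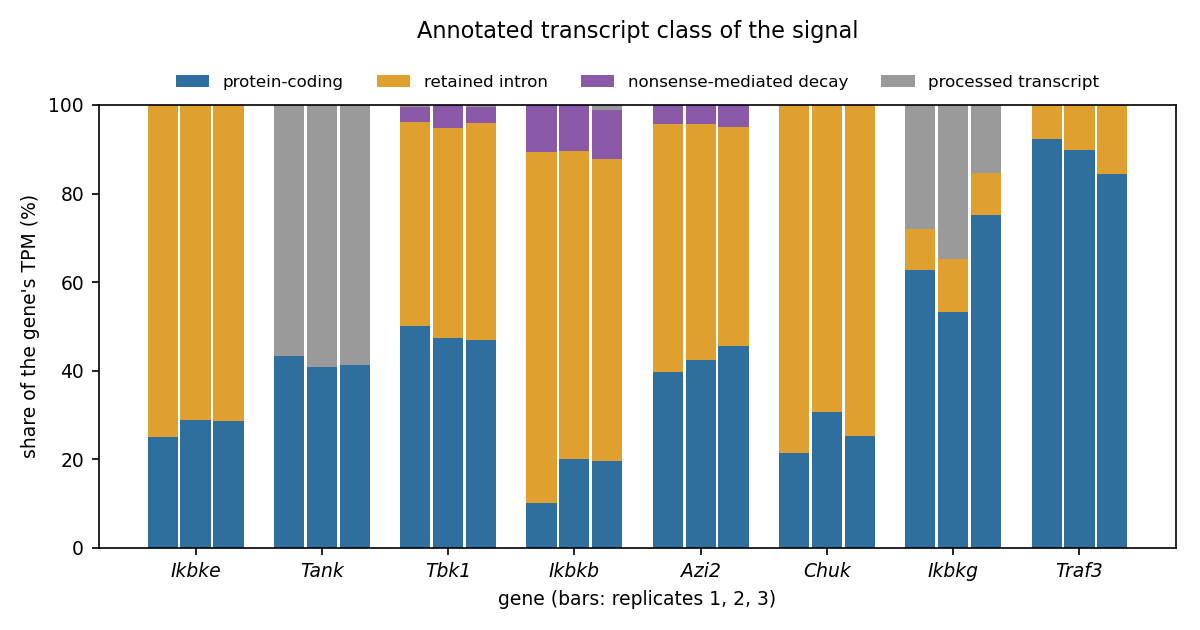
Share in percent of each gene's TPM held by protein-coding, retained-intron, nonsense-mediated decay and processed transcripts, with 1 bar each for replicates 1, 2 and 3. Retained-intron transcripts fill over 68% of every bar of Ikbke, Ikbkb and Chuk, protein-coding ones over 84% of every bar of Traf3, and processed transcripts over 56% of every bar of Tank.

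In Ikbke the retained-intron signal lay in the middle and at the end of the gene. By TPM the highest transcript was Ikbke-207, a retained-intron model of 741 nt, with 151, 114.3 and 111.8 TPM. Ikbke-205 (797 nt) followed with 127.6, 123.7 and 89.89 TPM. Ikbke-201, the full coding transcript with 22 exons and 3251 nt, had 88.82, 89.2 and 82.87 TPM, a mean of 87.0 ± 3.55 TPM (SD, n = 3). By TPM it was the steadiest of them, while Ikbke-203, with 123.8, 59.8 and 62.9 TPM, was highest in replicate 1. Ikbke-206 is the longest model, with 5856 nt of which 74.5% is intron of Ikbke-201, and it held 4050, 4525 and 3057 expected counts. The coding Ikbke-201 held 3567, 6904 and 4303 expected counts, and the short Ikbke-207 held 1072, 1476 and 968. Ikbke-206 keeps introns 17, 18 and 19 of Ikbke-201 whole, with 722, 1184 and 677 nt. The antisense gene Gm28914 (22.8 TPM) overlaps part of intron 17 and does not reach introns 18 and 19. The antisense gene Gm28913 (50.4 TPM) overlaps most of the first exon of Ikbke-206 and exons of Ikbke-207, Ikbke-203 and Ikbke-201, among others. The values of both antisense genes and of these Ikbke transcripts are uncertain without the strand.

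In Ikbkb most retained-intron models begin at the gene's start and stop inside an intron. Of 7 such transcripts 6 start within 60 bases of the gene's first base, and 5 of these stop in an intron of the coding Ikbkb-201. Ikbkb-212 is 94.9% intron, stops in intron 2 and had 14.23, 6.57 and 9.08 TPM. Ikbkb-204, Ikbkb-210, Ikbkb-209 and Ikbkb-214 run into introns 4, 5, 7 and 8, and averaged 6.04, 7.16, 16.4 and 5.48 TPM. The other two models do not follow this pattern. Ikbkb-211 runs from the first exon to the last and keeps introns 12 and 13 whole, with 12.95, 7.73 and 10.56 TPM, and Ikbkb-205 starts 37563 bases into the gene, with 8.2, 6.92 and 8.1 TPM. A nonsense-mediated decay model, Ikbkb-208, averaged 9.32 TPM. The coding Ikbkb-201, with 22 exons, had 3.11, 7.76 and 8.51 TPM and was lowest in replicate 1, where the retained-intron models named here were highest. Gm15346 (3.31 TPM) is antisense to Ikbkb over 9382 bases. In Chuk the retained-intron model Chuk-207, which stops in intron 16, averaged 13.2 ± 2.11 TPM, and the coding Chuk-201 averaged 7.06 ± 1.43 TPM (SD, n = 3).

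The sequences at 3 of these boundaries show what separates the models. They are GENCODE M21 transcript sequences in the orientation of the gene, with the last 30 coding bases of the exon in lower case. Capitals mark the next 30 bases, which are intron in the retained form and the next exon in the spliced form. The boundaries lie at chr1:131259152-131259211 for Ikbke intron 18, chr8:22706052-22706111 for Ikbkb intron 2 and chr19:44081916-44081975 for Chuk intron 16 (retained forms, minus strand).
Ikbke-206, intron 18 retained: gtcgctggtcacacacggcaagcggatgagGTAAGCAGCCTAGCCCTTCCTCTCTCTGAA
Ikbke-201, intron 18 spliced: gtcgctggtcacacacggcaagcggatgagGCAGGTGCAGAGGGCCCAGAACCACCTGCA
Ikbkb-212, intron 2 retained: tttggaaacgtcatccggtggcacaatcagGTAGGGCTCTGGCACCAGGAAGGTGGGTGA
Ikbkb-201, intron 2 spliced: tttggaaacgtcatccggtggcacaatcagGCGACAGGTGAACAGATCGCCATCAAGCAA
Chuk-207, intron 16 retained: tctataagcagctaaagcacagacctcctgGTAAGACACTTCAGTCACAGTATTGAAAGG
Chuk-201, intron 16 spliced: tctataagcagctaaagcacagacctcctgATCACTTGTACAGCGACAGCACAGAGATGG
Each retained form reads on into GT, the usual first bases of an intron, and all 17 such boundaries of the named transcripts did so.

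**Figure D4:**
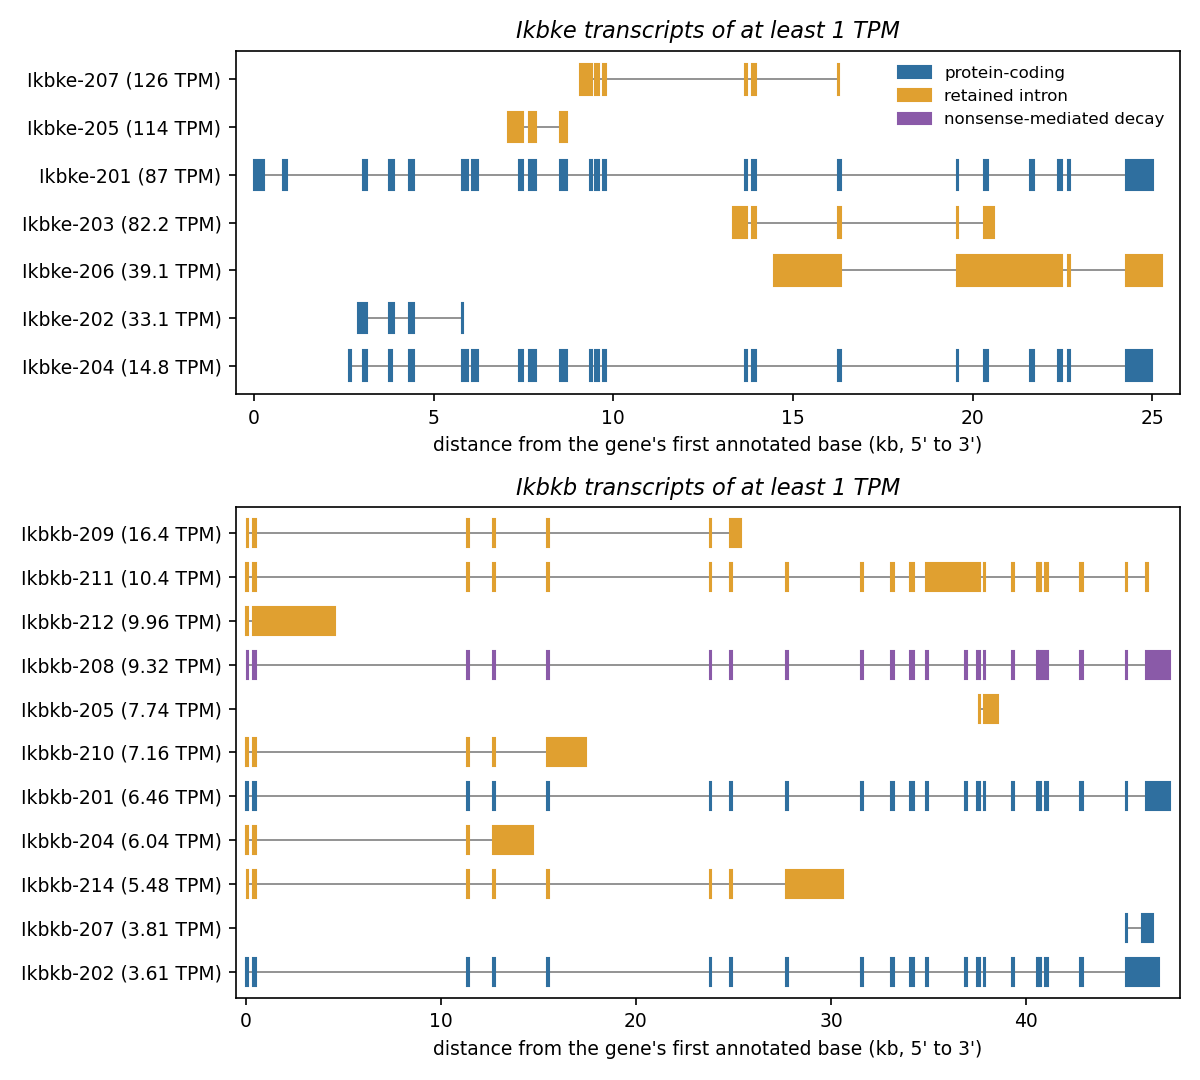
Exons (boxes) of the Ikbke and Ikbkb transcripts of at least 1 TPM against the distance from the gene's first annotated base in kb, listed by mean TPM of the 3 libraries, with retained-intron models in yellow, coding ones in blue and a nonsense-mediated decay model in purple. The retained-intron models of Ikbke start 7 kb or more into the gene, whereas 6 of those of Ikbkb start at its first exon.

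Counting coding transcripts alone brought some genes closer together. Tank and Ikbke then lay together at the top. Tank had 231, 73.48 and 121.2 coding TPM, a mean of 142 ± 80.7, and Ikbke had 152, 133.2 and 119.5, a mean of 135 ± 16.3 (SD, n = 3), so Tank was well above Ikbke in replicate 1 and well below it in replicate 2. In the second quantification the coding TPM averaged 286 for Ikbke and 166 for Tank. Tbk1 followed with 65.9 ± 9.39 TPM (SD, n = 3). Ikbke over Tbk1 was then 1.04 ± 0.19 on the log2 scale, or 2.05-fold, and Chuk over Ikbkb was -0.50 ± 0.24 (SD, n = 3). Both ratios kept their sign in all 3 libraries. Tbk1 and Ikbke over Chuk and Ikbkb came to 3.10 ± 0.44 on the log2 scale (SD, n = 3), or 8.6-fold. Tbk1-201, with 58.37, 56.52 and 64.36 TPM, held 44.1% of the gene, the largest share of a full coding transcript among the 4 kinases. Its retained-intron model Tbk1-207 held 21% (28.6 TPM).

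The coding forms of the lower genes were spread or rested on few counts. Azi2-201 averaged 9.05 ± 1.94 TPM, below the short retained-intron model Azi2-206 at 13.2 ± 5.19 TPM (SD, n = 3). Traf3-201, with 12 exons and 7060 nt, was steady at 4.19, 3.75 and 3.7 TPM and held 53.9% of the gene, while the short coding model Traf3-204 held 31.8%. In the second quantification Traf3-201 held 18.4% and Traf3-204 held 54.5%. The 18 transcripts of Ikbkg shared few counts, and its highest coding model by mean, Ikbkg-216, had 0, 0.35 and 4.19 TPM from 0, 4 and 35 expected counts. A count of 0 is compatible with up to 3 counts, and no order among the Ikbkg transcripts was read. Some models moved between the quantifications: Ikbkb-206 averaged 12.2 TPM and Chuk-206 averaged 7.50 TPM in the second, and both were listed at 0 in the first.

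Annotated Tank transcripts begin at 2 main starts 14.5 kb apart, and the models of both had signal. The downstream start (5 transcripts, 14492 to 14580 bases into the gene) had 217.8, 72.65 and 120.7 TPM, or 40.7 ± 0.357% of Tank TPM (SD, n = 3). The upstream start (4 transcripts, within 26 bases of the gene's first base) had 161.6, 52.65 and 82.32 TPM, or 29.2 ± 1.17% (SD, n = 3). The remaining 30.1 ± 1.13% (SD, n = 3) was nearly all Tank-211, a processed transcript of 832 nt that begins 65246 bases into the gene. At the downstream start the highest models were the processed transcript Tank-207 (62.6 TPM) and the coding Tank-202 (59.4 TPM), and at the upstream start the coding Tank-205 (44.9 TPM). The shares of the starts hardly moved between libraries although the level of Tank did. The models of every start thus summed highest in replicate 1. These sums group models by annotated start and do not count reads at a start. Tank-207 is 87.4% and Tank-211 57.2% intron of Tank-202. In the chromatin fraction unspliced RNA from either main start could add to both models, and these sources cannot be told apart here.

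The ratio of the starts rested on the quantification. Downstream over upstream was 0.34, -0.08 and 0.23 on the log2 scale in the second quantification, with a mean of 0.16 ± 0.22, and 0.43, 0.46 and 0.55 in the first, with a mean of 0.48 ± 0.06 (SD, n = 3). The upstream share was 39.8 ± 3.60% in the second and 29.2 ± 1.17% in the first (SD, n = 3). The inner share was 15.8 ± 0.92% in the second and 30.1 ± 1.13% in the first (SD, n = 3). Replicate 2 had the sign of the ratio turned round in the second quantification.

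**Figure D5:**
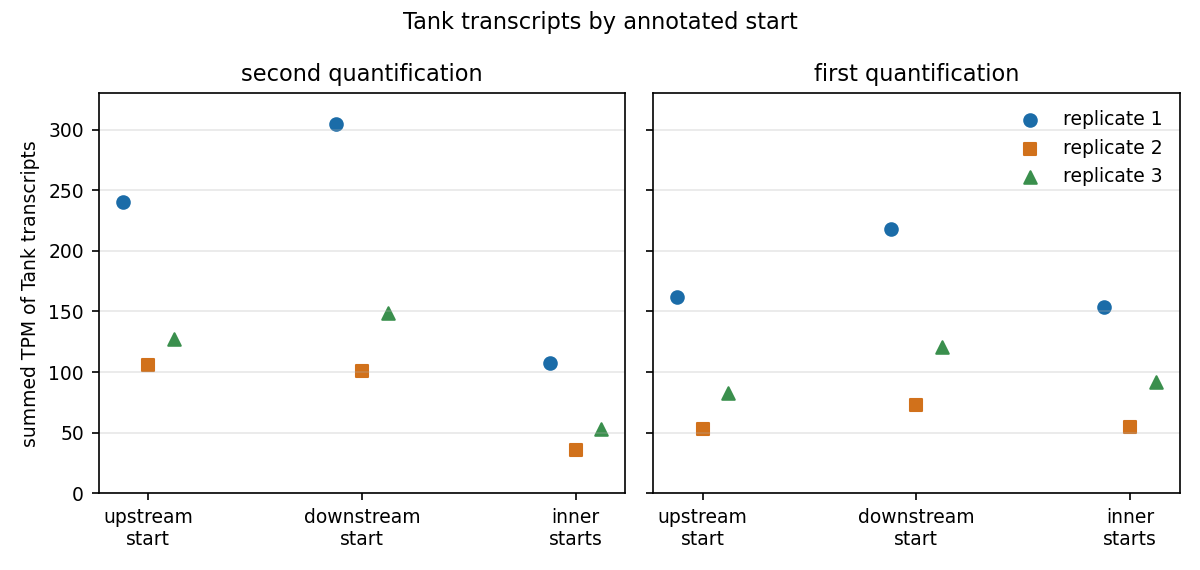
Summed TPM of Tank transcripts that begin at the upstream start, the downstream start or farther inside the gene, in replicates 1, 2 and 3, for the second (left) and first (right) quantification. Replicate 1 is highest for the models of every start in both, for example 304.6 TPM for the downstream start in the second quantification and 217.8 TPM in the first.

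The promoters of the 2 Tank starts differ in sequence. The RefSeq promoter table (GRCm38.p6) held 7 of the 8 genes, all but Ikbkb, with 13 windows. The 250 bases before each start were searched on both strands for the NF-kB (kB) consensus and for the core of interferon-response elements, spelled GAAA, any 2 bases, GAAA. The window before the downstream start, chr2:61592847-61593096 (plus strand), holds 1 kB match, which begins 72 bases before the start and is in capitals below. The window before the upstream start, chr2:61578336-61578585 (plus strand), holds none in the spelling that was searched. Near its end it has ggaagtcccc, which on the other strand reads close to the downstream match. A spelling with more freedom at the inner bases would count it. The contrast between the 2 starts therefore depends on the spelling of the consensus, which is not given here.
Tank downstream start: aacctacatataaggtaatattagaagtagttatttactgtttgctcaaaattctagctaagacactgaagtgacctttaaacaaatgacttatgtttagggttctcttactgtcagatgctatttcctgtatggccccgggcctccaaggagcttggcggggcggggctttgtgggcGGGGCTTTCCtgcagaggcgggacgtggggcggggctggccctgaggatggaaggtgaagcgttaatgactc
Tank upstream start: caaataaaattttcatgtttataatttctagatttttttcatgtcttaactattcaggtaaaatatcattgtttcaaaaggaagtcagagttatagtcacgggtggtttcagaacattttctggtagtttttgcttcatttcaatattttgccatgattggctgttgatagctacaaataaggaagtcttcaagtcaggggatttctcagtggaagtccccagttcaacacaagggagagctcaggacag
The downstream window has 49.6% and the upstream window 35.2% G and C, against a median of 52.4% over all 32817 windows. The kB consensus was found in 3.9% of those windows and the interferon-response core in 2.97%. Among the family Traf3 also had a kB match, 10 bases before its start, and no window held the interferon-response core. A match of letters is not evidence of binding, and no binding was measured.

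The genes around the family were placed on the same TPM scale. Of 11 receptor and adaptor genes all were detected, with a median of 11.4 ± 2.47 TPM (SD, n = 3). The co-receptor gene Cd14 (170 ± 80.9 TPM) and the kinase gene Irak2 (133 ± 12.4 TPM) were the highest and the adaptor gene Tirap (0.77 ± 0.285 TPM) the lowest (SD, n = 3). The 11 genes of the TAK1 kinase and its ubiquitin machinery, which act just above the IKK complex, had a median of 15.3 ± 2.58 TPM (SD, n = 3). Tab2 (47.4 TPM) and Map3k7 (25.3 TPM), which encode the ubiquitin-binding subunit and TAK1 itself, led that group, and Tab3 (1.40 TPM) was last. Both medians lay below the 65.4 TPM of the IKK family in these libraries.

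Of the other groups, the substrates came closest to the family by median TPM. The 8 substrates had a median of 66.7 ± 13.5 TPM (SD, n = 3), led by Nfkbia (351 ± 67.8 TPM), which encodes the inhibitor IκBα, and Nfkb1 (268 ± 48.0 TPM), with Irf7 (19.2 ± 1.47 TPM) the lowest. The 6 genes of the noncanonical NF-kB pathway had a median of 43.0 ± 5.28 TPM (SD, n = 3). The name of that pathway is separate from that of the noncanonical kinases Tbk1 and Ikbke. Nfkb2 (168 TPM) and Birc3 (153 TPM) were at the top. Map3k14 (7.44 TPM), the gene of the NF-kB-inducing kinase, was at the bottom. Of 6 further TBK1-linked genes 5 were detected, led by Optn (78.4 ± 18.1 TPM) and Dtx4 (25.2 ± 4.37 TPM). The median was 6.36 TPM over the 6, of which Traf2 also counts to the noncanonical pathway. The gene not detected, Tmem173, which encodes STING, averaged 0.42 TPM. The chaperone genes Hsp90ab1, Hsp90aa1 and Cdc37, whose proteins fold the IKK kinases, had 39.9, 38.6 and 10.7 TPM.

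The libraries of 49.3% of all detected genes spanned 1.5-fold or more. By group the number of such genes was 5 of 11 among receptors and adaptors, 3 of 11 in the TAK1 group, 3 of 8 among the substrates and 4 of 6 in the noncanonical pathway. It was 2 of the 5 detected TBK1-linked genes and 0 of 3 chaperone genes, beside 1 of 8 in the IKK family.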

How the data were processed

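The study measured chromatin RNA by RNA-seq in 3 libraries of 1 group. Per the file headers, the deposited gene and transcript tables of the first quantification hold expected counts, TPM and FPKM made by the authors. A deposited second set of transcript tables holds estimated counts and TPM, which were summed per gene. The build was mm10 with GENCODE M21, per the deposited notes; aligner, quantifier and strand setting are not given in the sources used here. Names and positions came from GENCODE M21.

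The members and gene lists were chosen with earlier results of these data known. The rule for names covers the 8 genes, transcripts with 5% or more of a gene's TPM (only part of which the text names), and the 2 highest genes and the lowest gene of each list; the profile genes of Tank and models beyond this rule were chosen after their values were seen. Levels were compared within each library as log2 ratios of TPM. Library spans used expected counts rounded to whole numbers, genes with at least 10 counts in each library, TMM factors from edgeR 4.0.16 (R 4.3.3) and CPM with 0.5 added to each count. Rows naming no mouse gene (1.28%, 0.427% and 0.383% of counts in replicates 1, 2 and 3) were left out. Depth is given as total counts; the tables hold no molecular identifiers, and the floor of 3 counts covers counting error only. Alternatives were the second quantification, FPKM, counts, posterior mean TPM, coding transcripts alone, 1 TPM added, TPM rescaled to protein-coding genes, DESeq2 1.42.0 size factors, library totals, no filter, a 2-fold limit and each library left out. Figures were drawn with matplotlib 3.10.9 in Python 3.11.15.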

Additional observations from a re-analysis of the deposited data

How the results depend on the processing

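No paired analysis was possible because there is 1 group of libraries. All 3 ratios kept their sign under every alternative run. With the second quantification, Ikbke over Tbk1 was 2.20, Tbk1 and Ikbke over Chuk and Ikbkb 2.81, and Chuk over Ikbkb -0.69 (log2). With coding transcripts alone they were 1.04, 3.10 and -0.50. With expected counts, which are not divided by length, Tbk1 and Ikbke over Chuk and Ikbkb was 1.69 and Chuk over Ikbkb was -1.76. Leaving out 1 library gave 1.76 to 1.99 for Ikbke over Tbk1, 2.27 to 2.46 for the summed pairs and -1.28 to -1.06 for Chuk over Ikbkb. The number of the 8 genes that span 1.5-fold was 2 with library totals, where 54.5% of all genes did, and 0 to 1 with 1 library left out (0 without replicate 1, where 14% of genes did, and 1 without replicate 2 or 3, where 30.7% and 38.4% did). Library totals put the median of all genes at 0.22, -0.11 and -0.08 in replicates 1, 2 and 3. The log2 range of Tank was 1.44 with library totals and 0.96 in the second quantification. The median coding share over the 8 genes was 42.2% of TPM, 40.9% in the second quantification and 69.8% by expected counts, and 41.5% to 42.5% with 1 library left out; the cause of these shifts was not tested. The mean TPM moved by more than its SD for 7 of the 8 genes in the second quantification. Depth limits single transcripts with few counts, such as those of Ikbkg.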

Other observations

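The genes whose TMM-scaled CPM ran most like that of a family member over the 3 libraries were looked up among 4508 other protein-coding genes with a mean of at least 200 counts. Likeness is the distance between log2 values centred on each gene's mean. Those closest to Ikbke were Rps19, Npc1 and Psmd6, at distances of 0.027, 0.034 and 0.039, and 38 genes lay within 0.1. Tbk1 was closest to Itch, Flvcr1 and Lgals8, at 0.009, 0.010 and 0.015, with 256 genes within 0.1. Tank was closest to Trim36, Cggbp1 and Mplkip, at 0.005, 0.005 and 0.019, with 19 genes within 0.1. Trim36 had 29.28, 13.3 and 17.3 CPM in replicates 1, 2 and 3, beside 878, 400 and 518 CPM for Tank. With 3 points a profile holds little information, and many genes match any one of them closely.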
